A study of Mus musculus with 20 samples.

Results

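The livers compared here came from mice of the genotype labelled RageΔMye, kept on an alcohol or a control diet. The labels write the genotype with the word delta, taken here to mean that Ager, which encodes the receptor RAGE, was deleted in cells of the myeloid lineage. The comparison takes 6 libraries of the 20 in the series, 3 on alcohol diet and 3 on control diet, chosen by their labels alone. Both groups share the genotype, the male label, whole liver tissue and 6 weeks of feeding. The reference groups of the same table are WT livers, 4 on alcohol and 4 on control diet. Age, strain and the promoter behind the deletion remain not given in the sources used here. The series concerns high-mobility group box-1 (HMGB1) in alcohol-related liver disease, and this comparison asks what the diet changed in livers carrying the RageΔMye label. Nothing in the labels says that the libraries came from separate animals, so a p-value may measure only the spread between preparations.

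Alcohol is oxidised in hepatocytes by alcohol dehydrogenases and by the microsomal enzyme Cyp2e1, and the acetaldehyde formed is cleared by aldehyde dehydrogenases. Feeding alcohol is known to alter fat synthesis and oxidation, the cytochromes that handle foreign compounds, glutathione use and iron handling in liver. RAGE is a cell-surface receptor that binds HMGB1, an alarmin released by damaged cells, and myeloid cells such as Kupffer cells, the resident liver macrophages, carry it. The liver also differs between the sexes: growth hormone pulses keep a male programme of genes high, among them the major urinary proteins and the steroid enzyme Hsd3b5.

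The values are TPM, a transcript level corrected for gene length and scaled to one common total per library. The targeted gene went against the label. Ager was at 124, 101 and 128 TPM in the control libraries labelled RageΔMye and at 112, 93.1 and 166 TPM in the alcohol libraries, against 0.0194 to 0.478 TPM over the 8 WT libraries. Every library labelled RageΔMye thus held more Ager than any WT library, so the groups are called by their label. Each listed 7596 to 8502 genes above 0, against 15113 to 15599 in WT, and its most frequent value above 0 was 14.4 to 20.5 TPM, so low levels are coarse. The share of TPM in genes whose exons overlap an opposite-strand exon was 55.8% to 61.7% here and 15.4% to 18.3% in WT. Over the genes tested, libraries of the same diet correlated at 0.735 to 0.816 on the log2(TPM + 1) scale and libraries of different diets at 0.657 to 0.732. WT libraries of the same diet correlated at 0.989 to 0.997 over these genes. The median SD of a gene within a diet was 0.400 to 0.422 here and 0.128 to 0.185 in WT. These are descriptions across genes with no test. How these features bear on the results below was not tested.

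On alcohol diet, genes of foreign-compound metabolism, the lipogenic regulator Thrsp and the ferritin chain Fth1 rose, and the pheromone protein Mup20, the protease inhibitor Serpina1e, the desaturase relative Fads3 and the linker histone Hist1h1c fell. Genes averaging 50 TPM or more on either diet were tested with limma on log2(TPM + 1), and a gene was called at an adjusted p under 0.05 (Benjamini-Hochberg). Of 1900 genes tested, 13 rose (0.684%) and 4 fell (0.211%). With 0.895% called in either direction, a short list without a call says little about its genes. A further description, which uses no model of the spread, counts genes whose diets do not overlap: all 3 alcohol values lay above all 3 control values for 261 genes (13.7%) and below them for 217 genes (11.4%), 25.2% in all. A gene whose mean reached 50 TPM on 1 diet only had its direction largely set by that filter: 244 genes passed through the alcohol libraries alone, 199 through the control libraries alone and 1457 on both diets. Of the 17 calls, 6 passed through alcohol alone, Cyp2a4, Cyp4a14, Ces1d, Cyp2c29 and Por among them, and 11 on both diets. Among the 1457 genes, 174 (11.9%) lay above and 143 (9.81%) below without overlap. With 3 libraries against 3, an exact permutation test of a single gene cannot go below 0.10. The calls rest on few libraries. Without alcohol library 2, limma called 0 genes, with 242 at an unadjusted p under 0.05, without alcohol library 1 it called 1 higher and 12 lower, and without alcohol library 3 it called 8 and 5. Without control library 1, 2 or 3 the calls were 4 and 2, 4 and 1, and 6 and 1, higher and lower. Rescaling TPM over the genes with no opposite-strand overlap, and testing only those, gave 7 higher and 4 lower. All fold changes below are on the log2(TPM + 1) scale, alcohol against control, with their standard error (SE).

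**Figure D1:**
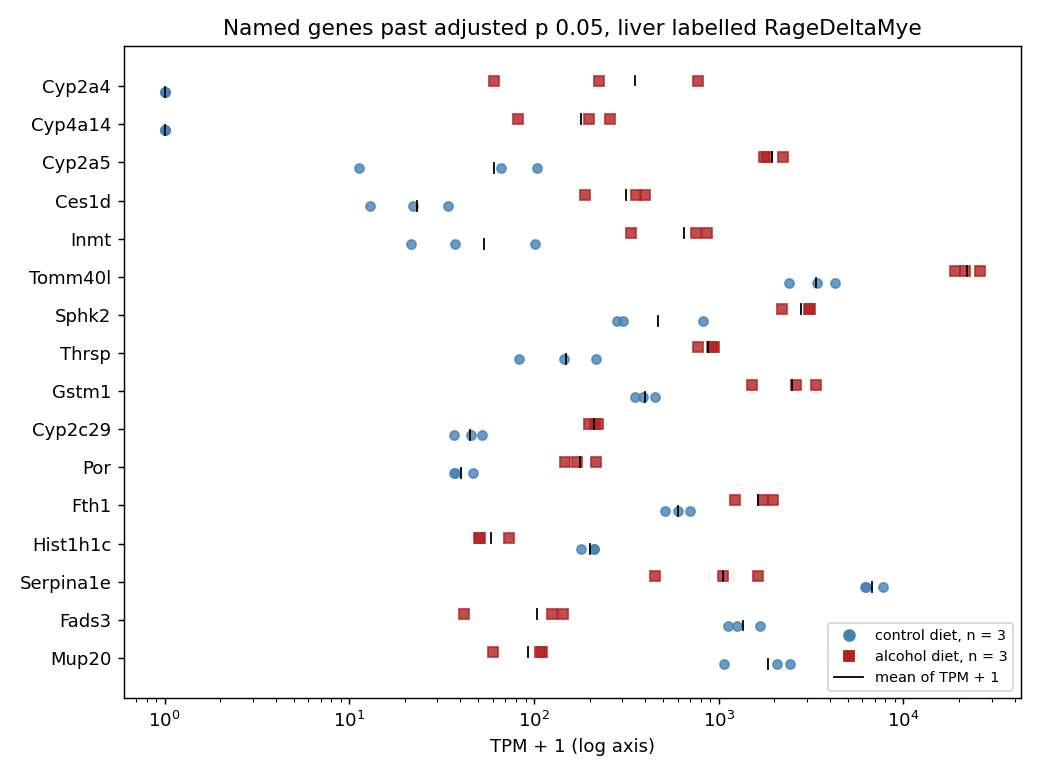
TPM + 1 on a log axis for the 16 named genes past the threshold, with 1 point per library, control diet as circles and alcohol diet as squares (n = 3 each), and a bar at the mean of each diet. The diets do not overlap for any of the 16 genes, and the control values of Cyp2a4 and Cyp4a14 all sit at 1, which is a TPM of 0.

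The cytochrome P450 genes Cyp2a4 and Cyp2a5 were among those that rose, and their coding sequences are nearly the same. Cyp2a5, which oxidises coumarin and nicotine, lies at chr7:26835305-26843548 on the plus strand, and Cyp2a4, a steroid hydroxylase, at chr7:26307169-26315088 on the plus strand (mm10, GENCODE vM21). Of 1482 coding bases, 23 differ, an identity of 98.4%. The stretch from coding base 592 to 741 is shown because it holds the densest run of differences, 7 in 150 bases, and the differing bases are in capitals. Each line reads 5′ to 3′ on the coding strand, from GENCODE transcripts.
Cyp2a5: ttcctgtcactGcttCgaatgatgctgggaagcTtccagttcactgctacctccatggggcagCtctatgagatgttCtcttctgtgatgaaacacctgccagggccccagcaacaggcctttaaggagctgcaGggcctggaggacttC
Cyp2a4: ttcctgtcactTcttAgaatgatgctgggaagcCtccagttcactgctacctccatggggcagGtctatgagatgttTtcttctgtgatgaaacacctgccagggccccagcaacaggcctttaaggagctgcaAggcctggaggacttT
Reads that fall between the capitals fit both genes, so the split of signal between them is uncertain.

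Cyp2a5 was at 65.1, 103 and 10.4 TPM on control diet against 1764, 2236 and 1823 TPM on alcohol, a log2 fold change of 5.50 ± 0.74 (SE, adjusted p = 0.0228). Cyp2a4 had a listed level of 0 in all 3 control libraries and of 223, 773 and 60.0 TPM on alcohol (adjusted p = 0.040), so no fold is given. The Cyp2a5 values lay close together on alcohol, whereas those of Cyp2a4 were spread widely, with library 2 highest and library 3 lowest. Cyp2a4 passed the 50 TPM level through the alcohol libraries alone, so its direction was largely set by that filter.

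Cyp2c29, which oxidises fatty acids and drugs, stood at 44.7, 51.4 and 35.7 TPM on control diet against 212, 220 and 197 TPM on alcohol, a log2 fold change of 2.24 ± 0.29 (SE, adjusted p = 0.0228). Por, the reductase that passes electrons to all microsomal cytochromes P450, went from 36.3, 45.6 and 35.7 TPM to 147, 169 and 215 TPM (2.14 ± 0.32 SE, adjusted p = 0.0349). Both genes had control values close together and alcohol values well above them. Of the 20 drug-metabolising cytochromes and partners listed, 15 were tested: 3 rose (Cyp2a5, Cyp2c29, Por), none fell, and 9 lay without overlap above and 1 below the control libraries. Of these 9, 5 passed the 50 TPM level through the alcohol libraries alone, Cyp2c29 and Por among them. Of the 9 members that passed on both diets, 4 lay above and 1 below. Over all genes tested, 0.684% rose, 13.7% lay above and 11.4% below. Among all genes that passed on both diets, 11.9% lay above and 9.81% below. The median log2 fold change of the 15 was 1.08, beside 0.05 over all genes tested, 0.23 over the tested genes with no opposite-strand overlap and 0.30 over 10 housekeeping genes, and it too holds the members selected through alcohol. Cyp2c37 was at 65.2, 54.7 and 23.2 TPM on control diet and 194, 126 and 132 TPM on alcohol, with an adjusted p of 0.134. Of the 15, 13 had a log2 fold change above 0. The others were Cyp2f2, at 387, 427 and 384 TPM against 306, 223 and 194 TPM on alcohol (adjusted p = 0.222), and Cyb5r3, a cytochrome b5 reductase, with overlapping diets and -0.36 ± 0.18 (SE, adjusted p = 0.367).

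Carboxylesterase Ces1d, which hydrolyses drugs and stored triglyceride, was at 21.1, 12.0 and 33.4 TPM on control diet against 399, 355 and 188 TPM on alcohol, a log2 fold change of 3.80 ± 0.48 (SE, adjusted p = 0.0228). Inmt, a methyltransferase for indoles and other amines, went from 36.2, 20.5 and 101 TPM to 867, 754 and 335 TPM (3.80 ± 0.61 SE, adjusted p = 0.0425). Alcohol library 3 was the lowest of its group for both genes, yet above every control library. Ces1d, with a control mean of 22.2 TPM, passed the 50 TPM level through the alcohol libraries alone. The direction of Ces1d was thus largely set by that filter.

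Gstm1, one of the glutathione transferases, which join glutathione to reactive compounds, rose. It was at 453, 349 and 388 TPM on control diet against 2635, 3361 and 1514 TPM on alcohol, a log2 fold change of 2.59 ± 0.30 (SE, adjusted p = 0.0214). Among 9 tested genes of the glutathione and NRF2 list of 28, 1 rose, none fell, and 4 lay above the control libraries without overlap, with a median of 1.04. Gstm3 and Gstt2, 2 of these 4, passed the 50 TPM level through the alcohol libraries alone. Of the 7 members that passed on both diets, 2 lay above and none below. The shares above were 13.7% over all genes tested and 11.9% over all that passed on both diets, and 0.684% of all genes tested rose. Gsta3 was at 272, 128 and 228 TPM against 641, 573 and 359 TPM on alcohol, with an adjusted p of 0.135. Gstt2 was at 17.2, 19.7 and 0 TPM against 86.7, 90.5 and 72.4 TPM, with an adjusted p of 0.234. The diets did not overlap for either gene.

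Of the enzymes that oxidise alcohol and acetaldehyde, 11 of 15 were tested, none was called in either direction, and 5 lay above the control libraries without overlap and none below, beside 13.7% and 11.4% of all genes tested. All 5 passed the 50 TPM level on both diets. Adh1, the main liver alcohol dehydrogenase, was at 670, 411 and 733 TPM on control diet and 1682, 1508 and 1544 TPM on alcohol, a log2 fold change of 1.42 ± 0.25 (SE, adjusted p = 0.0523). Cyp2e1 was at 2476, 1697 and 1319 TPM against 4479, 3946 and 2827 TPM on alcohol, 1.06 ± 0.28 (SE, adjusted p = 0.137). Aldh1a1, an aldehyde dehydrogenase that also forms retinoic acid, was at 141, 107 and 86.3 TPM against 332, 280 and 214 TPM, with an adjusted p of 0.105. The diets did not overlap for these 3 genes, and none of them passed the test. The median log2 fold change of the 11 was 0.61, beside 0.05 over all genes tested and 0.30 over the housekeeping genes.

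In fatty acid oxidation, Cyp4a14, a target of the fatty acid receptor PPAR-alpha that hydroxylates fatty acids at their end, had a listed level of 0 in the 3 control libraries and of 197, 258 and 80.7 TPM on alcohol (adjusted p = 0.040). Its relative Cyp4a10 was at 0, 10.4 and 6.40 TPM against 315, 213 and 15.3 TPM, with an adjusted p of 0.217. Alcohol library 3 was the lowest of its group for both. Of 13 tested members of the PPAR-alpha and fatty acid oxidation list of 30, 1 rose, none fell and 5 lay above the control libraries without overlap, with a median of 0.72. Cyp4a14 and Cyp4a10 passed the 50 TPM level through the alcohol libraries alone, so the list's call and 2 of its 5 had their direction set by the filter. Of the 11 members that passed on both diets, 3 lay above and none below. The shares above were 13.7% over all genes tested and 11.9% over all that passed on both diets. Of all genes tested, 0.684% rose and 0.211% fell. Acaa2, the mitochondrial thiolase of beta-oxidation, was at 682, 499 and 364 TPM on control diet and 950, 1134 and 687 TPM on alcohol, with an adjusted p of 0.234.

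Fat synthesis genes were split. Thrsp, a thyroid hormone responsive protein that promotes lipogenesis, was at 145, 82.2 and 216 TPM on control diet and 936, 920 and 772 TPM on alcohol, a log2 fold change of 2.66 ± 0.35 (SE, adjusted p = 0.0228). Of 9 tested members of the synthesis list of 21 it was the only call, 2 lay above the control libraries without overlap and 4 below, with a median of -0.58. Of the 5 that passed the 50 TPM level on both diets, 1 lay above and 2 below, beside 11.9% and 9.81% of all genes that did so. Over all genes tested, 0.895% were called, 13.7% lay above and 11.4% below. The 4 list members below were desaturases and elongases, which shape the chain length and double bonds of fatty acids. Scd1, the stearoyl-CoA desaturase, was at 319, 239 and 490 TPM on control diet and 108, 97.8 and 130 TPM on alcohol, -1.58 ± 0.32 (SE, adjusted p = 0.0863). Elovl5 was at 78.3, 58.7 and 92.3 TPM against 21.9, 10.6 and 15.6 TPM, with an adjusted p of 0.105. Elovl3 and Fads2 had adjusted p-values of 0.108 and 0.213. Elovl3 and Elovl5 passed the 50 TPM level through the control libraries alone, so their direction was largely set by that filter. Plin2, which coats lipid droplets, was at 500, 218 and 297 TPM on control diet and 85.5, 53.4 and 84.5 TPM on alcohol, -2.11 ± 0.38 (SE, adjusted p = 0.0549).

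Fads3, a member of the fatty acid desaturase family, fell. It was at 1679, 1252 and 1124 TPM on control diet and 142, 124 and 40.8 TPM on alcohol, a log2 fold change of -3.88 ± 0.47 (SE, adjusted p = 0.0214). In WT liver its mean was 0.351 ± 0.137 TPM (SD, n = 4) on control diet and 0.510 ± 0.142 TPM (SD, n = 4) on alcohol. Levels above 1 TPM were seen only under the RageΔMye label, and GENCODE vM21 places no opposite-strand exon over Fads3.

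Genes of the male-biased list lay below their control levels on alcohol. Mup20, or darcin, a urinary pheromone protein, was at 1067, 2442 and 2069 TPM on control diet and 110, 58.6 and 107 TPM on alcohol, a log2 fold change of -4.29 ± 0.38 (SE, adjusted p = 0.00543). Serpina1e, a member of the alpha-1-antitrypsin family, went from 7790, 6292 and 6232 TPM to 1640, 1053 and 451 TPM (-2.87 ± 0.43 SE, adjusted p = 0.0349). Both fell, and their diets stayed far apart. Of 14 tested genes of the male-biased list of 22, 2 fell and none rose, beside 0.211% and 0.684% of all genes tested. Without overlap, 10 lay below the control libraries, beside 11.4% of all genes tested. All 14 had a log2 fold change below 0, with a median of -4.08. Several members were at 0 in alcohol libraries, so the size of this median depends on the pseudocount. Of the 14, 4 passed the 50 TPM level through the control libraries alone. Of the 10 that passed on both diets, 7 lay below, beside 9.81% of all genes that did so. Over all genes tested, 1012 of 1900 had a log2 fold change above 0.

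Major urinary proteins other than Mup20 varied widely on alcohol. Mup7 was at 7475, 10809 and 8078 TPM on control diet and 2198, 344 and 0 TPM on alcohol, with an adjusted p of 0.244. Mup14 was at 1350, 2925 and 2235 TPM against 182, 0 and 0 TPM, with an adjusted p of 0.104. Hsd3b5, a steroid reductase of male liver, was at 343, 302 and 189 TPM against 69.6, 0 and 0 TPM, with an adjusted p of 0.134. In these 3 genes alcohol library 1 held the most of its group. Mup14 and Mup11 share 98.9% of their aligned coding bases, Mup20 and Mup11 91.3%, and Serpina1e 96.4% with Serpina1c, so signal can be split between copies.

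Another male-biased gene differed from its course in WT. Cyp2d9, a male steroid hydroxylase, was at 561, 306 and 456 TPM on control diet and 734, 489 and 199 TPM on alcohol, a log2 fold change of -0.04 ± 0.48 (SE, adjusted p = 0.98), with overlapping diets. In WT liver the same gene went from 2395 ± 425 to 26.8 ± 1.96 TPM (SD, n = 4 each). The difference of the effects was 6.37 ± 0.57 (SE, adjusted p = 3.4e-05). Of the female-biased list of 21, 2 genes were tested, Cyp2a4 and Cyp4a14. Both passed the 50 TPM level through the alcohol libraries alone, so their direction says nothing about the list, and the other 19 members were not tested.

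Sex-linked transcripts were measured beside these genes. The summed level of the Y-linked genes Ddx3y, Eif2s3y, Kdm5d and Uty was 3.16 to 4.50 TPM in the control libraries and 0.276 to 1.74 TPM in the alcohol libraries, so the diets did not overlap, at low levels. Xist, the X-inactivation transcript of female cells, was at 0 to 3.10 TPM on control diet and 0.322 to 0.990 TPM on alcohol. In WT, where all libraries are labelled male, the alcohol libraries held Xist at 17.8 to 27.3 TPM and a Y-linked sum of 0 to 0.0161 TPM, against at most 0.135 TPM of Xist and a Y-linked sum of 11.3 to 16.6 TPM on control diet. In WT the diet and this sex-linked pattern cannot be told apart, and its part in the male-biased genes of the libraries labelled RageΔMye was not tested.

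**Figure D2:**
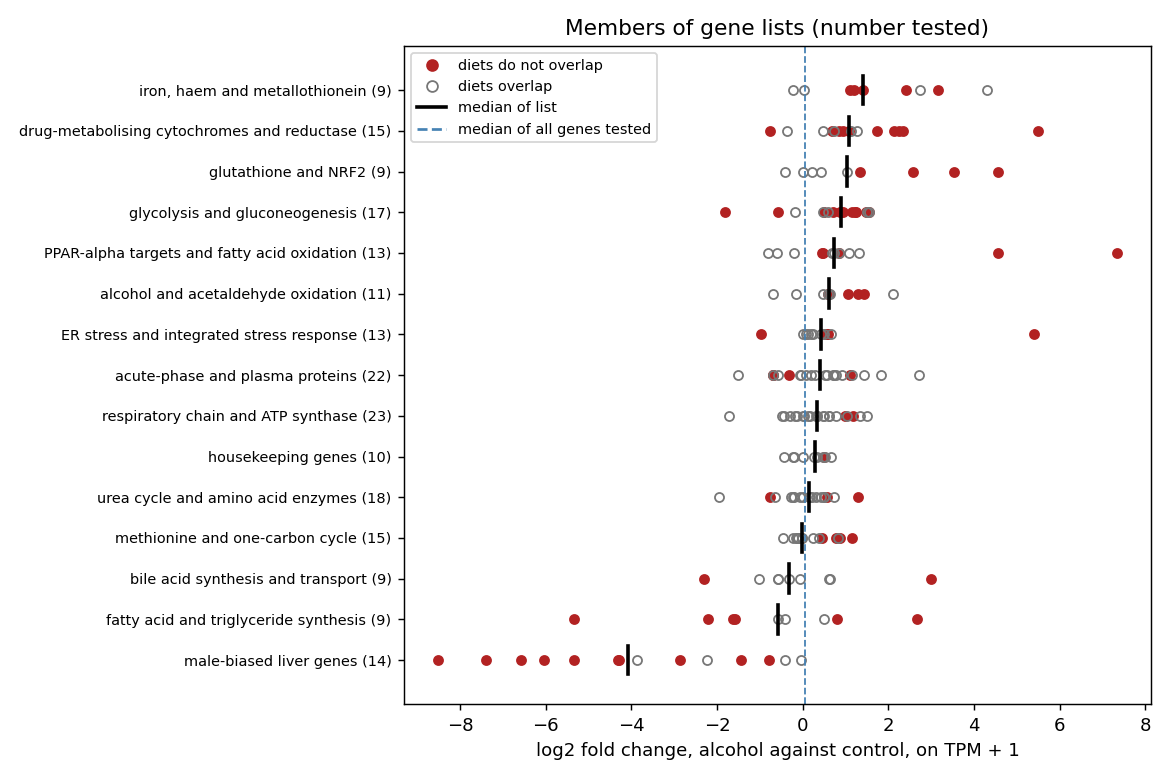
Log2 fold change (alcohol against control, TPM + 1) of each tested member of the 15 pathway lists with at least 8 tested genes, filled where the diets do not overlap, with a bar at each list's median and a dashed line at the median of all genes tested, 0.05. The 14 male-biased genes all lie below 0 with a median of -4.08, where values of genes at 0 TPM on alcohol depend on the pseudocount of 1. The list of iron, haem and metallothionein genes and that of drug metabolism have medians of 1.42 and 1.08. Both medians hold members that passed the 50 TPM level through the alcohol libraries alone.

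Of 17 tested members of the glycolysis and gluconeogenesis list of 26, none was called, 10 lay above the control libraries without overlap and 2 below, beside 13.7% and 11.4% of all genes tested. The median was 0.90, beside 0.05 over all genes tested and 0.30 over the housekeeping genes. Of the 13 that passed the 50 TPM level on both diets, 9 lay above and 1 below. Khk, the fructokinase, was at 185, 162 and 214 TPM on control diet and 408, 486 and 353 TPM on alcohol, 1.14 ± 0.23 (SE, adjusted p = 0.0863). Fbp1, which catalyses a late step of gluconeogenesis, was at 467, 347 and 395 TPM against 704, 801 and 693 TPM, with an adjusted p of 0.105.

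Of 9 tested genes of the iron, haem and metallothionein list of 24, 5 lay above the control libraries without overlap. Of these 5, 1 was called. The shares over all genes tested were 13.7% above and 0.684% called higher. The metallothioneins Mt1 and Mt2 are among the 9, had overlapping diets and passed the 50 TPM level through the alcohol libraries alone. Of the 6 that passed the 50 TPM level on both diets, 4 lay above. Fth1, the heavy chain of ferritin, which stores iron, was at 697, 513 and 602 TPM on control diet and 1739, 1961 and 1217 TPM on alcohol, a log2 fold change of 1.42 ± 0.24 (SE, adjusted p = 0.0439). Its partner light chain Ftl1 was at 2117, 1942 and 1451 TPM against 4318, 5865 and 2866 TPM, with an adjusted p of 0.105. Alas1, the first enzyme of haem synthesis, was at 6.03, 61.8 and 43.2 TPM against 222, 255 and 243 TPM, with an adjusted p of 0.108. Alas1 too passed the 50 TPM level through the alcohol libraries alone, so its direction was largely set by that filter. Hamp, which encodes the iron hormone hepcidin, was at 1009, 982 and 733 TPM against 1795, 1609 and 2482 TPM, 1.10 ± 0.23 (SE, adjusted p = 0.0892). The median of the 9 was 1.42, and it holds the 3 members that passed through the alcohol libraries alone.

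Methionine-cycle genes had no call among 15 tested, and 4 lay above the control libraries without overlap, beside 13.7% of all genes tested. The median of the 15 was -0.01. That median was 0.77 over the members with no opposite-strand overlap, since 8 of the 15 have such a partner. Gnmt, which uses up the methyl donor S-adenosylmethionine, was at 1405, 1185 and 1309 TPM on control diet and 2619, 1990 and 2077 TPM on alcohol, 0.77 ± 0.18 (SE, adjusted p = 0.105). Ahcy, which splits the product of that reaction, was at 282, 214 and 254 TPM against 493, 429 and 446 TPM, with an adjusted p of 0.106. Of 18 urea cycle and amino acid genes tested, none was called and the median was 0.16, and of 23 respiratory chain genes none was called, with a median of 0.33. Over all genes tested, 0.895% were called.

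Bile acid and cholesterol genes had no call among 9 and 6 tested, with medians of -0.32 and -0.23. Cyp8b1, which sets the share of cholic acid, was at 203, 181 and 218 TPM on control diet and 90.5, 9.89 and 66.2 TPM on alcohol, with an adjusted p of 0.225. Abcc3, a basolateral exporter of bile acids and conjugates, was at 11.9, 4.53 and 3.19 TPM against 93.5, 48.0 and 32.6 TPM, with an adjusted p of 0.19. Abcc3 passed the 50 TPM level through the alcohol libraries alone, so its direction was largely set by that filter. Among 13 tested genes of endoplasmic reticulum stress none was called, and the median was 0.44. Without overlap, 4 lay above and 1 below, beside 13.7% and 11.4% of all genes tested. Canx, the membrane chaperone calnexin, was the 1 below, at 84.0, 80.1 and 79.2 TPM against 36.2, 40.8 and 47.1 TPM on alcohol, with an adjusted p of 0.234. Creld2, a chaperone-like stress gene, had a listed level of 0 in every control library and of 86.4, 75.8 and 10.1 TPM on alcohol, with an adjusted p of 0.279. Of the 4 above, 2 passed the 50 TPM level through the alcohol libraries alone, Creld2 among them, and Canx passed through the control libraries alone. Their direction was largely set by that filter. Of the 10 stress genes that passed on both diets, 2 lay above and none below, beside 11.9% and 9.81% of all genes that did so.

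No acute-phase gene was called. Of 22 tested, 1 lay above the control libraries (4.55%) and 3 below (13.6%) without overlap, beside 13.7% and 11.4% of all genes tested, so the shares were no larger than, or close to, those of all genes. The median was 0.41, beside 0.30 over the housekeeping genes. Saa1, serum amyloid A, was at 199, 719 and 489 TPM on control diet and 69.4, 678 and 2694 TPM on alcohol, with an adjusted p of 0.911. Lcn2, an iron-siderophore binding protein of inflamed liver, was at 0, 103 and 43.1 TPM against 34.7, 90.5 and 408 TPM, with an adjusted p of 0.45. Alcohol library 3 stood highest of all 6 for both genes, and alcohol library 1 lowest of all for Saa1. The fibrinogen chain Fgg was at 1975, 2274 and 2268 TPM on control diet and 1093, 1227 and 1789 TPM on alcohol, with an adjusted p of 0.219.

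The HMGB1 and IL-1 axis, which the series is about, showed no call. Of its 26 listed genes 2 reached the level for testing, Ager and Il1rap. Over all genes tested, 0.895% were called, so no call among these 2 says little about the axis. Il1rap, the co-receptor of the IL-1 receptor, was at 874, 809 and 836 TPM on control diet and 750, 551 and 741 TPM on alcohol, -0.32 ± 0.19 (SE, adjusted p = 0.438), and the diets did not overlap. In WT its level was 16.0 ± 2.48 and 10.5 ± 3.17 TPM (SD, n = 4 each), and 552 of its 11360 exonic bases overlap Gm20319 on the opposite strand, so its reads may hold those of another transcript. Ager had a log2 fold change of 0.04 ± 0.31 (SE, adjusted p = 0.961), with overlapping diets. Hmgb1 lay under the level for testing, at 38.6, 25.4 and 27.9 TPM on control diet and 32.0, 35.2 and 29.0 TPM on alcohol, with overlapping diets. The cytokine Il1b was listed at 0 in 4 of the 6 libraries, at 17.4 TPM in control library 2 and at 12.2 TPM in alcohol library 3. Il1r1 and Il1rn reached at most 5.94 and 5.78 TPM. A diet effect on these low genes was not detectable at such levels.

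Markers of liver cell types were summed per library. In whole tissue, fewer cells of a type and less RNA per cell cannot be told apart. The 13 hepatocyte markers summed to 53608 to 72657 TPM on control diet and 44254 to 63590 TPM on alcohol, and in WT to 140421 to 181224 TPM, so hepatocyte markers were present, at a lower sum than in WT. Kupffer markers summed to 420 to 556 TPM on control diet and 123 to 528 TPM on alcohol, and Timd4 was listed at 0 in all 6 libraries. Of 6 Kupffer markers tested none was called, and the median was -0.86. Without overlap, 2 lay below the control libraries, beside 11.4% of all genes tested. Both of these, Clec4f and Cd5l, passed the 50 TPM level through the control libraries alone, as did 4 of the 6, so their direction was largely set by the filter. Clec4f, the Kupffer cell lectin, was at 99.2, 124 and 47.6 TPM on control diet and 28.5, 8.32 and 41.1 TPM on alcohol, with an adjusted p of 0.235.

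Markers of infiltrating cells were low or listed at 0, but 1 or 2 of 14 housekeeping genes were also listed at 0 in each of the 6 libraries, and none in WT, so a 0 does not show that a transcript was absent. The 9 neutrophil markers summed to 0 to 20.5 TPM on control diet and 0 to 30.3 TPM on alcohol, with 7 of them at 0 in all 6 libraries. The 13 monocyte markers summed to 0 to 57.1 TPM and 10.8 to 19.2 TPM, with 7 at 0 throughout, Ly6c2 and Ccr2 among them. In WT the monocyte sum was 91.5 to 157 TPM on control diet and 163 to 325 TPM on alcohol. T and NK cell markers were at 0 in every alcohol library, and 9 of the 10 were at 0 in all 6 libraries. Sinusoidal endothelial markers summed to 66.1 to 109 TPM and 60.5 to 97.0 TPM, and stellate cell markers to 33.7 to 72.3 TPM and 64.6 to 71.4 TPM. Exocrine pancreas markers reached 18.1 to 27.5 TPM on control diet and 0 to 14.6 TPM on alcohol. The diets overlapped for all of these sums except that of the pancreas markers. No gene of the neutrophil, monocyte, T and NK cell, B cell, endothelial, stellate or cholangiocyte lists reached the level for testing.

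Among the rises, Tomm40l and Sphk2 overlap well-known genes on the opposite strand. Tomm40l, a relative of the mitochondrial import pore Tomm40, rose from 3398, 4268 and 2407 TPM to 19045, 21489 and 25899 TPM, a log2 fold change of 2.75 ± 0.24 (SE, adjusted p = 0.00543). It lies at chr1:171216011-171222514 on the minus strand, and 3304 of its 5135 exonic bases overlap exons of Nr1i3, the constitutive androstane receptor, a regulator of drug-metabolising cytochromes. Nr1i3 itself was at 145, 267 and 71.9 TPM on control diet and 172, 377 and 117 TPM on alcohol, 0.48 ± 0.58 (SE, adjusted p = 0.667), with overlapping diets. In WT, Tomm40l was at 5.12 ± 0.694 TPM on control diet and 2.25 ± 0.374 TPM on alcohol (SD, n = 4 each), while Nr1i3 was at 214 ± 41.8 and 150 ± 20.6 TPM. The library kit keeps strand, but how the counting used it was not given in the sources used here, so reads of a gene and of its opposite partner may not be separated.

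Sphk2, a sphingosine kinase, rose from 822, 302 and 282 TPM to 3122, 3071 and 2201 TPM, a log2 fold change of 2.74 ± 0.41 (SE, adjusted p = 0.0349). It lies at chr7:45709467-45718002 on the minus strand, and 539 and 373 of its 4159 exonic bases overlap Dbp, a circadian transcription factor, and the ribosomal protein gene Rpl18. Dbp was at 31.3, 41.8 and 38.3 TPM on control diet and 29.6, 33.4 and 43.4 TPM on alcohol, and Rpl18 at 326, 185 and 244 TPM against 364, 256 and 102 TPM. Neither partner separated the diets, and WT levels of Sphk2 were 6.10 ± 1.15 and 2.40 ± 0.698 TPM (SD, n = 4 each). Of the 17 calls, 4 have an opposite-strand partner, the other two being Cyp2a4 and 0610030E20Rik, against 950 of the 1900 genes tested.

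Hist1h1c, a linker histone that packs chromatin, fell from 178, 210 and 212 TPM to 49.3, 72.5 and 50.3 TPM, a log2 fold change of -1.80 ± 0.29 (SE, adjusted p = 0.0425). Several genes lay lower without overlap and did not pass the test. Mydgf, a secreted factor of myeloid cells, was at 253, 247 and 273 TPM on control diet and 69.4, 15.1 and 29.1 TPM on alcohol, -3.00 ± 0.53 (SE, adjusted p = 0.0525). Mydgf passed the 50 TPM level through the control libraries alone, so its direction was largely set by that filter. Selp, the adhesion molecule P-selectin, was at 626, 656 and 727 TPM against 306, 355 and 236 TPM, -1.18 ± 0.22 (SE, adjusted p = 0.0674). Egfr, the epidermal growth factor receptor, was at 260, 410 and 284 TPM against 133, 125 and 70.4 TPM, with an adjusted p of 0.102. Selp levels in WT were 0.499 ± 0.0667 and 1.58 ± 1.40 TPM (SD, n = 4 each), and Selp overlaps opposite-strand exons.

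The other called genes lie on several chromosomes (mm10, GENCODE vM21). Mup20 is at chr4:62050234-62054158 and Cyp4a14 at chr4:115486200-115496142, both on the minus strand. Chromosome 19 holds Fth1 at chr19:9980598-9985098, Fads3 at chr19:10041569-10060110 and Cyp2c29 at chr19:39269405-39330713, all on the plus strand, so Fth1, which rose, and Fads3, which fell, are close together. Thrsp is at chr7:97412938-97417730, Gstm1 at chr3:108012255-108017973, Inmt at chr6:55170626-55175043, Ces1d at chr8:93166068-93197838 and Serpina1e at chr12:103946931-103958975, all on the minus strand. Por is at chr5:135670033-135735326 and Hist1h1c at chr13:23738808-23740367, on the plus strand. None of these 12 has an exon overlapped by an opposite-strand exon in that annotation.

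The difference between diets was then set against that in WT by a test of the difference itself, over all 14 liver libraries with a weight per genotype. In WT the diets also differ in Xist and Y-linked transcripts, so diet and this sex-linked pattern cannot be told apart there. Under the RageΔMye label the Y-linked sum, at low levels, did not overlap between the diets either. It was 3.16 to 4.50 TPM on control diet and 0.276 to 1.74 TPM on alcohol, and its part was not tested. The test therefore does not isolate a diet effect. The difference passed for 62 of 1900 genes (3.26%), with 33 above 0 (1.74%) and 29 below (1.53%), as RageΔMye minus WT. Of these 62, 8 were also called for diet in the libraries labelled RageΔMye. An opposite-strand partner was held by 31 of them, the same share as the 950 of all 1900 genes tested. Effects had opposite signs in the 2 genotypes for 37 of the 62, and picking large differences favours opposite signs. Of the 17 diet calls, 11 had the same sign in WT. No share of sign agreement over all genes is given here, so these sign counts are not interpreted. Without control library 2 the counts above and below 0 were 12 and 9, without control library 3 they were 22 and 16, and without alcohol libraries 1 and 2 they were 13 and 17, and 14 and 18. With equal weights for both genotypes they were 173 and 92.

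Cyp2a5 went from 542 ± 114 to 2078 ± 149 TPM in WT (SD, n = 4 each). Under the RageΔMye label its means were 59.5 ± 46.6 and 1941 ± 257 TPM (SD, n = 3 each), so the control levels lay further apart than the alcohol levels. The difference of the effects was 3.54 ± 0.74 (SE, adjusted p = 0.0255). Gstm1 was at 1610 ± 272 and 1566 ± 160 TPM in WT (SD, n = 4 each), with a difference of 2.62 ± 0.48 (SE, adjusted p = 0.014). For Mup20, of the male-biased list, the fall was larger in WT, from 16930 ± 6147 to 53.5 ± 4.15 TPM (SD, n = 4 each). In WT this fall cannot be assigned to diet or to the sex-linked pattern. The Mup20 difference was 3.92 ± 0.80 (SE, adjusted p = 0.0244). The difference also passed for Tomm40l, Fads3, Sphk2, Inmt and 0610030E20Rik. In WT, Fads3 was at means of 0.351 and 0.510 TPM on control and alcohol diet. At such levels the pseudocount of 1 holds the fold change near 0. For Ces1d and Thrsp it did not pass: Ces1d had 3.07 ± 0.93 (SE, adjusted p = 0.092) and Thrsp 2.74 ± 1.14 (SE, adjusted p = 0.217), which does not show that the effects are alike.

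**Figure D3:**
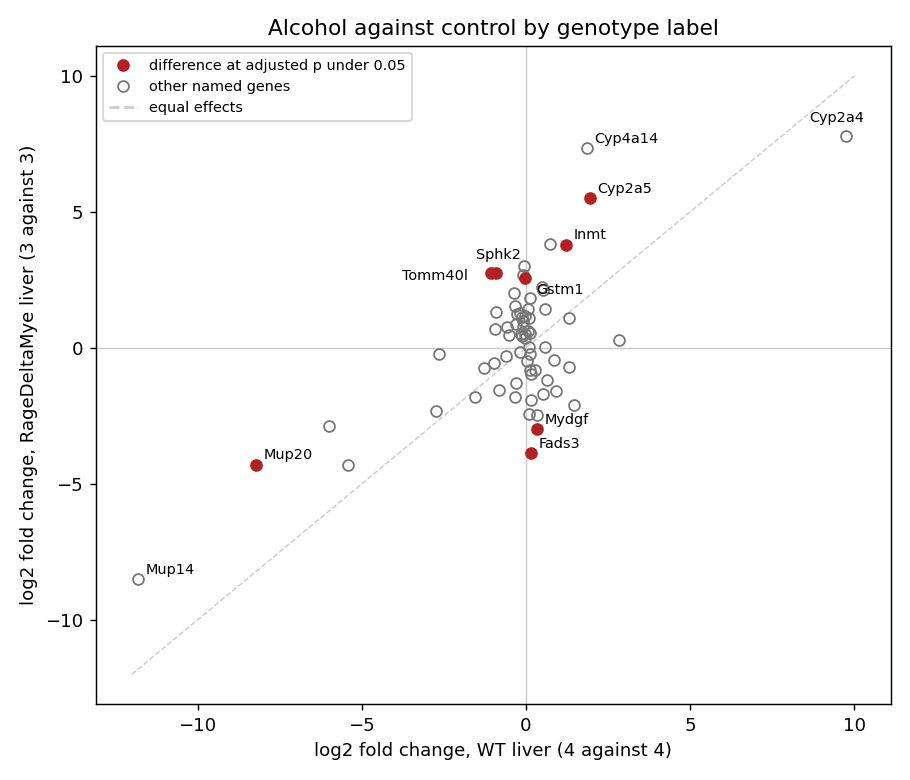
Log2 fold change on alcohol diet (TPM + 1) in WT liver (horizontal, 4 libraries against 4) and in liver labelled RageΔMye (vertical, 3 against 3) for the named genes that were tested, filled where the difference passed an adjusted p of 0.05, with a dashed line of equal effects. Fads3 and Mydgf lie near 0 in WT and below 0 on the vertical axis. In WT, Fads3 was at means of 0.351 TPM on control diet and 0.510 TPM on alcohol. At such levels the pseudocount of 1 holds the fold change near 0. Mydgf passed the 50 TPM level through the control libraries labelled RageΔMye alone. Tomm40l and Sphk2 lie above 0 only on the vertical axis, and Mup20 is below 0 on both axes. In WT the diets also differ in Xist and Y-linked transcripts, so the horizontal axis is not a diet effect alone. Under the RageΔMye label the Y-linked sum was also lower on alcohol, without overlap, and its part in the vertical axis was not tested.

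**Figure D4:**
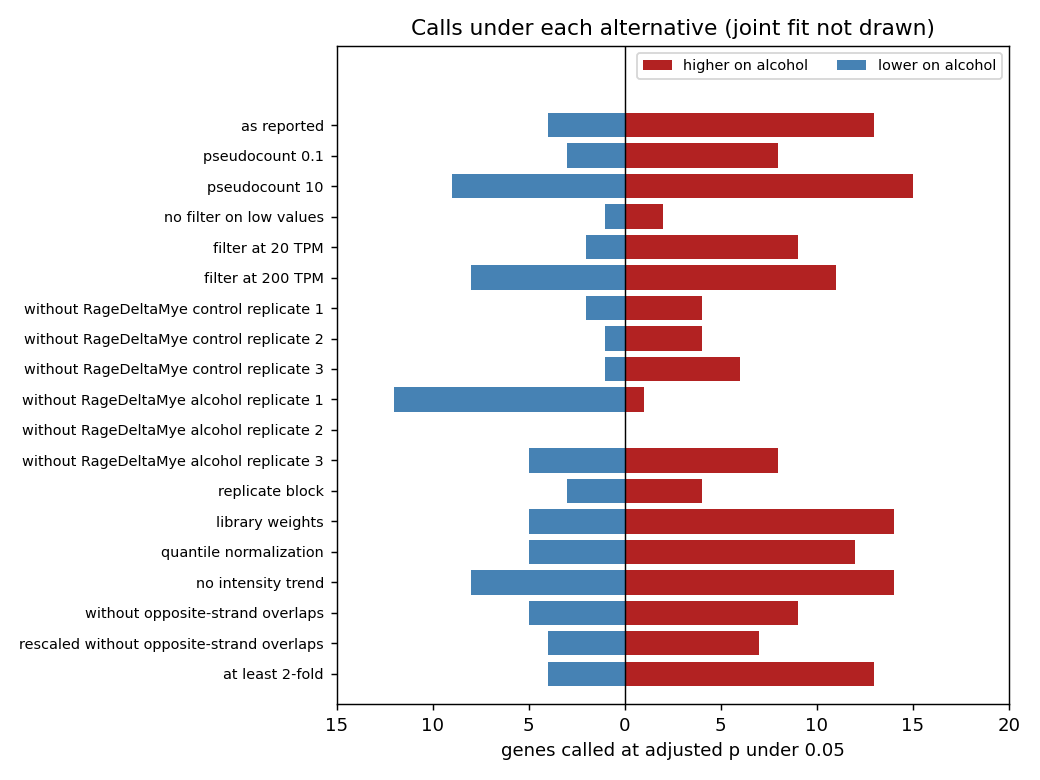
Number of genes called higher (right) and lower (left) on alcohol at an adjusted p under 0.05 for the reported analysis and 18 alternatives, each bar starting at 0. The reported counts are 13 and 4, the counts without alcohol library 2 are 0 and 0, and the joint fit of 14 libraries, with 223 and 168, is not drawn.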

How the data were processed

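Gene expression was measured by RNA sequencing of whole liver, with a stranded mRNA kit per the labels' protocols. The authors deposited 1 table of 14 liver libraries with 24972 gene symbols, whose header names no unit. Its entries were taken to be TPM (transcripts per 1000000) that the authors computed, since they are not whole and every column sums to 1000000. Per the submitters' processing notes the genome build was mm10. Aligner, counting tool, strand setting and annotation: not given in the sources used here. Read depth is unknown, so no counting interval is given.

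Values were transformed to log2(TPM + 1). Genes averaging 50 TPM or more in either group were fitted with limma 3.58.1 (R 4.3.3, eBayes trend) on the 6 libraries labelled RageΔMye, and p-values were adjusted by Benjamini-Hochberg. The difference of the diet effect between genotypes used all 14 liver libraries, with 1 weight per genotype. Opposite-strand exon overlaps were read from GENCODE vM21, which placed 24467 symbols. Biopython 1.88 aligned coding sequences, in place of a planned protein comparison.

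The comparison, the 39 gene lists and the tests were chosen with earlier results of these data known. Named genes are Ager, Hmgb1, Il1b, Il1r1, Il1rap and Il1rn, up to 15 called genes per direction by fold change without predicted-gene names, genes without overlap by smallest p where under 10 were called, up to 4 members per list and opposite-strand partners of called genes. Other list members named were chosen after their values were seen, and some list members are not reported here. The alternatives were other pseudocounts, filters, scalings, weights and fits, omission of each library, and the sample number as a block.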

Additional observations from a re-analysis of the deposited data

Results flagged for a closer look

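For 10 genes of the report the alcohol effect differed between the libraries labelled RageΔMye and WT by the test of the difference itself (limma, adjusted p under 0.05). On the log2(TPM + 1) scale, RageΔMye minus WT, the difference was 3.54 for Cyp2a5, 2.58 for Inmt and 2.62 for Gstm1. It was 3.66 for Tomm40l and 3.81 for Sphk2, which both overlap genes on the opposite strand and lay under 10 TPM in WT. Mup20 had a difference of 3.92, as its fall was larger in WT. Fads3 had -4.04 and Mydgf -3.33. In WT, Fads3 was at means of 0.351 TPM on control diet and 0.510 TPM on alcohol. At such levels the pseudocount of 1 holds the fold change near 0. Mydgf passed the 50 TPM level through the control libraries labelled RageΔMye alone. Outside the naming rule, 0610030E20Rik had 2.73 and Cyp2d9, which was chosen after its values were seen, had 6.37. The WT libraries on the 2 diets also differ in Xist and Y-linked transcripts. Under the RageΔMye label the Y-linked sum did not overlap between the diets either. The part of both patterns in the differences was not tested.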

How the results depend on the processing

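None of the 17 called genes changed sign under the alternatives that fitted it. The diets do not overlap for the named calls in these same libraries, so a change of sign was hardly possible. The largest adjusted p of a call over the alternatives ran from 0.113, as for Mup20, to 0.217 for 0610030E20Rik. No call thus passed under every alternative. Counts of calls, higher and lower, were 13 and 4 as reported. They were 8 and 3 with a pseudocount of 0.1, 15 and 9 with 10, 2 and 1 with no filter on low values, 9 and 2 at a filter of 20 TPM, 11 and 8 at 200 TPM, and 14 and 8 without the intensity trend. Without 1 library at a time they ranged from 0 to 8 higher and from 0 to 12 lower. The joint fit of 14 libraries, which shares the narrower WT spread, gave 223 and 168. Rescaling over genes with no opposite-strand overlap gave 7 and 4. Leaving those overlaps out without rescaling gave 9 and 5.

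Whether the sample numbers pair the libraries cannot be settled by the check used, which rests on deviations from means of 3 libraries. Same-numbered libraries deviated from their group means with correlations of 0.088, -0.058 and 0.094. With the number as a replicate block, 4 genes were called higher and 3 lower, and all 7 are among the 17. Control libraries 1 and 3 correlated best with their own number, and control library 2 correlated better with another number than its own. No paired analysis of the difference between genotypes was possible because WT sample numbers do not match.

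Genes without overlap, 261 higher and 217 lower, were 117 and 105 at 200 TPM, where fewer genes were tested, and 154 and 85 without opposite-strand overlaps. Without 1 library they ranged from 322 to 450 higher and 281 to 357 lower, as a comparison of 2 libraries with 3 overlaps less easily. The difference between genotypes passed for 33 genes above 0 and 29 below as reported, and for 173 and 92 with no weights. Without 1 library it passed for 12 to 33 above and 9 to 36 below.

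The median of the male-biased list was -2.92 with a pseudocount of 10. The methionine list moved to 0.77 without overlaps. Serac1 had -1.54 and Abcc3 1.98 with a pseudocount of 10. Among the genes that missed the test, the sizes of Elovl3, Elovl5 and Creld2 also moved by more than their spread. Where no value is given beside a change, the cause was not tested. The coarse grid of TPM values limits what can be read under 50 TPM.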
